A study of Bos taurus with 8 samples.

Results

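The genes described here encode subunits of RNA polymerases I, II and III and of the Mediator complex. They were taken as every gene whose symbol in the deposited table begins with POLR1, POLR2 or POLR3, or with MED and a digit. This gave 55 of 16966 gene symbols, 27 of them polymerase genes and 28 Mediator genes. The array reads them with 118 of its 43653 probes, 57 for polymerase genes and 61 for Mediator genes. The rule uses symbols alone, though it was set with earlier results of these data known.

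RNA polymerase I transcribes the large ribosomal RNA, RNA polymerase II messenger RNA, and RNA polymerase III transfer RNA and other small RNAs. The enzymes have subunits of their own and a common set of small subunits that all of them carry. Mediator joins DNA-bound transcription factors to RNA polymerase II. It is built from a head, a middle and a tail module, held together by MED14, and a separable kinase module that holds MED12, MED13 and the kinase CDK8.

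The samples were whole blood of 5 female Holstein Friesian cows, incubated for 30 min at 37 °C under 5% CO2. Blood in the CPE group held 10 ug/ml of a phenolic extract of cowpea leaf, and blood in the CONTROL group was left untreated. All cows had received a probiotic for 60 days before bleeding, so both groups share it. There were 4 single-colour arrays per group, with pooled RNA of each group on its own slide per the series' text, so slide and group cannot be told apart and p-values cover only the spread between arrays, which may be technical.

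Large areas of each array were dim, and more so on CONTROL arrays. A spot was called lit on an array when its surroundings, the 61 nearest spots, came within 1.5 log2 units of the brightest surroundings of that array. On average 46.5% ± 3.04 of spots were lit on CPE arrays and 37.8% ± 4.15 on CONTROL arrays (SD, n = 4 each). Across all 8 arrays, 12970 of 43803 spots (29.6%) were lit throughout, and so were 35 of the 118 member spots (29.7%). The 75th percentile of the processed signal was 206 ± 60.0 on CPE arrays and 111 ± 41.0 on CONTROL arrays (SD, n = 4 each). No spot was saturated, and the number of arrays limits the precision of every value.

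The comparison between groups was therefore made in the lit area, on probes lit and well above background on all 8 arrays. It measured 24 member genes with 1 probe each, 12 polymerase genes and 12 Mediator genes. Of the other 31 genes, 27 had no spot lit on all 8 arrays, and 4 had lit spots that were not well above background everywhere. Levels below are log2 processed signal relative to the 75th percentile of the array's lit spots, and changes are CPE minus CONTROL with limma's standard error (SE).

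In the lit area 8 subunit genes were higher in CPE blood, 2 were lower and 14 did not pass the test at an adjusted p of 0.05. The 8 were the shared polymerase subunits POLR2H, POLR2E and POLR2K, the RNA polymerase III subunits POLR3B and POLR3K, and MED1, MED7 and MED27. The 2 lower genes were MED12 and MED14. Every one of these rises read below 0 when arrays were scaled to the 75th percentile of their whole surface, where the median of all probes was -1.05, and above 0 when the whole array was scaled to the median of its tested probes. A rise here is therefore relative to the other probes of the lit area. The 10 calls are 41.7% of the members, against 48.2% of all 7162 probes tested. By direction, 33.3% of members and 23% of all probes were higher, and 8.3% of members and 25.2% of all probes were lower. Fewer cells of a type and less RNA per cell cannot be told apart in these bulk samples.

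The members' changes ran from -0.72 to 0.91, with a median of 0.18 against -0.001 over all probes tested. Their median size without sign was 0.24, against 0.35 for all probes. In 18 genes the change was above 0 and in 6 below. The groups did not overlap in 11 of 24 members (45.8%, 9 higher and 2 lower), against 50.2% of all probes (23% higher and 27.2% lower).

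**Figure D1:**
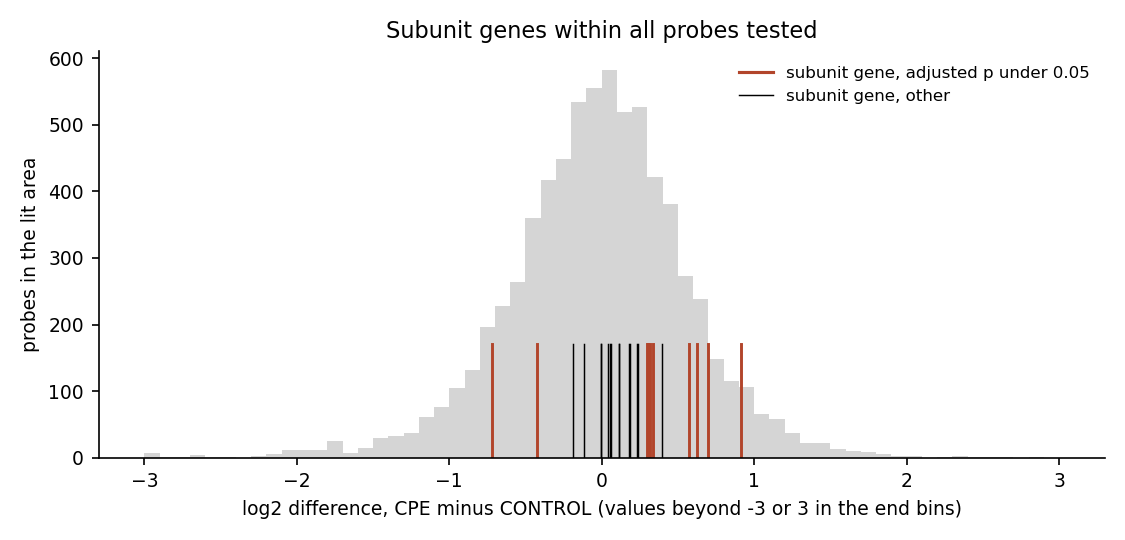
Histogram of the log2 difference (CPE minus CONTROL) of the 7162 probes tested in the lit area, with the 24 subunit genes drawn as vertical lines, red where the adjusted p was under 0.05. The members lie between -0.72 and 0.91, inside the bulk of all probes, with values beyond -3 or 3 placed in the end bins.

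The probes that carry these calls are 60 bases long, from the probe sequences in the deposited table. The 4 below are shown because they read the 2 lower genes, the rise with the smallest SE relative to its size, and a shared subunit, each as 1 probe in the lit area.
MED12: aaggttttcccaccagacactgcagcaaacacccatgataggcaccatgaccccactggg
MED14: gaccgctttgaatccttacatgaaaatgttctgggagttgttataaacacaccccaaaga
MED1: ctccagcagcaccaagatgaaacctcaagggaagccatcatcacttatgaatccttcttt
POLR2E: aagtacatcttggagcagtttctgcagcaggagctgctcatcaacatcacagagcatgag

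Among the subunits shared by all 3 polymerases, 3 of 5 genes were measured in the lit area and all 3 were higher in CPE blood, with a median change of 0.62. POLR2H, POLR2E and POLR2K encode small subunits of the common core, and the other two genes, POLR2F and POLR2L, had no spot lit on all 8 arrays. POLR2H stood at 2.67, 2.29, 3.68 and 2.48 on CPE arrays 1 to 4, against 2.13, 2.13, 2.06 and 1.15 on CONTROL arrays 1 to 4. The highest value lay on CPE array 3 and the lowest on CONTROL array 4, and the groups did not overlap. Its change was 0.91 (SE 0.33, 1.88-fold, adjusted p 0.0473 by limma). POLR2E read -0.32, -0.10, 0.19 and -0.24 on the CPE arrays, against -0.51, -0.50, -0.50 and -1.45 on the CONTROL arrays. CONTROL array 4 was far below the other CONTROL arrays, and the groups did not overlap. The change of POLR2E was 0.62 (SE 0.23, 1.54-fold, adjusted p 0.0479), and 0.38 without CONTROL array 4 (adjusted p 0.0404).

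POLR2K stood at 1.04, 0.69, 1.12 and 0.99 on the CPE arrays, against 0.54, 0.64, 0.61 and 0.72 on the CONTROL arrays. Its groups overlapped, since CPE array 2 read below CONTROL array 4, and its change was 0.33 (SE 0.11, 1.26-fold, adjusted p 0.0274). Among the calls, those of POLR2H and POLR2E were lost under the most alternatives, 14 of 20 for POLR2H and 14 of 21 for POLR2E, and that of POLR2K under 9 of 22, as was that of POLR3K. For POLR2H the adjusted p was 0.0563 to 0.115 when any 1 array apart from CPE array 2 was left out, and the change was 0.61 without CPE array 3. POLR2E missed the threshold without any 1 array apart from CONTROL array 4 (adjusted p 0.0535 to 0.0955), and POLR2K without CPE array 1 or 4 or CONTROL array 1, 2 or 3 (0.0623 to 0.0743).

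**Figure D2:**
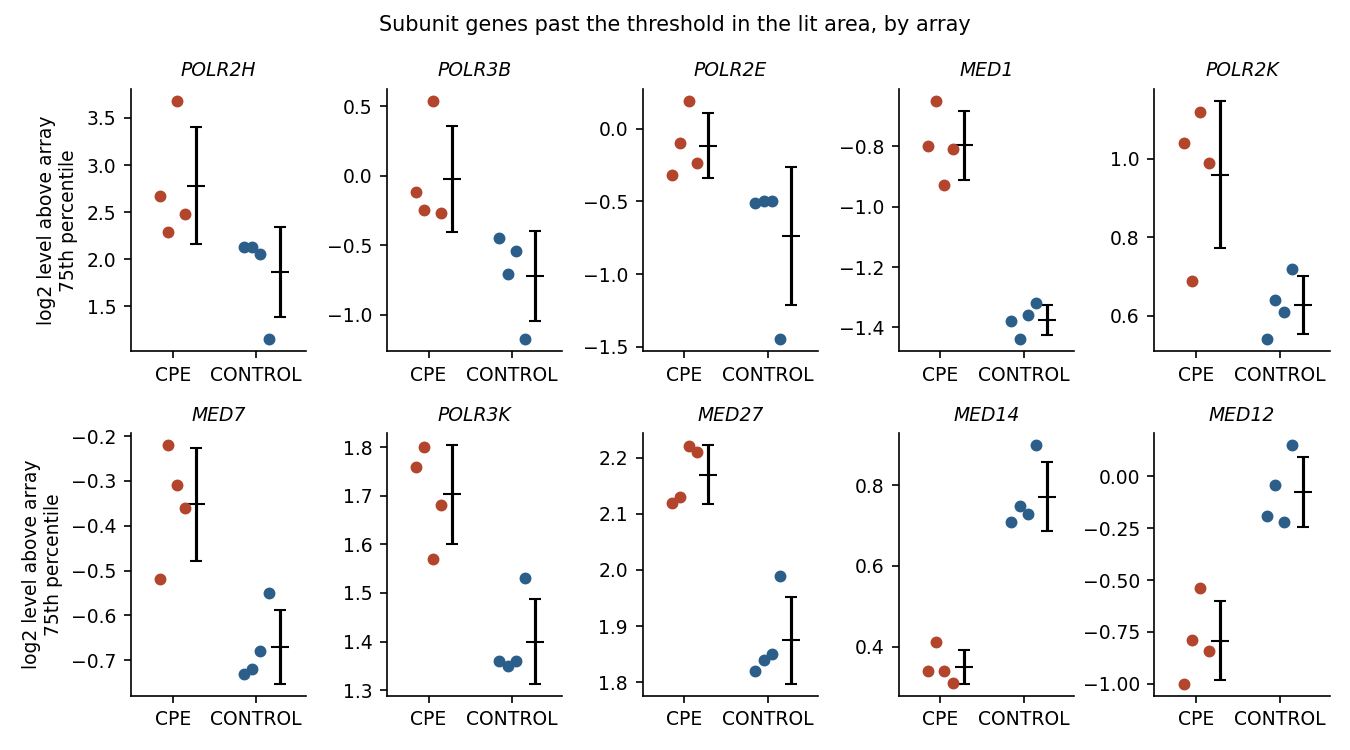
Level of the 10 subunit genes past the threshold on each array of the lit area, as log2 above the array's 75th percentile, with 4 CPE arrays (red) left of 4 CONTROL arrays (blue) and mean ± SD in black. In 9 panels the groups do not overlap, and in the POLR2K panel CPE array 2 (0.69) lies below CONTROL array 4 (0.72); scaled to the 75th percentile of the whole array, the 8 rises read below 0.

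Of the subunits that belong to RNA polymerase III alone, 4 of 9 were measured, 2 rose and 2 did not pass the test, with a median of 0.21. POLR3B, the second largest subunit, which forms the active centre together with POLR3A, read -0.12, -0.25, 0.54 and -0.27 on the CPE arrays. On the CONTROL arrays it read -0.45, -0.71, -0.54 and -1.18. CPE array 3 was the highest and CONTROL array 4 the lowest, without overlap, and the change was 0.70 (SE 0.22, 1.62-fold, adjusted p 0.0262). Without CONTROL array 4 it was 0.55 (adjusted p 0.0622), and without CONTROL array 2 the adjusted p was 0.0556.

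POLR3K is a small subunit that takes part in transcription termination. Its levels were 1.76, 1.80, 1.57 and 1.68 on the CPE arrays, against 1.36, 1.35, 1.36 and 1.53 on the CONTROL arrays. Every CPE array lay above every CONTROL array, by the least between CPE array 3 and CONTROL array 4. The change was 0.30 (SE 0.085, 1.23-fold, adjusted p 0.0176), and the adjusted p was 0.0502 to 0.0575 without CPE array 1 or any of CONTROL arrays 1 to 3. POLR3A, the largest subunit, changed by 0.11 (SE 0.37, adjusted p 0.817), with CPE array 3 at 1.94 and the other CPE arrays between 0.64 and 0.77. Only CONTROL arrays 1 and 4 entered its fit, at 0.92 and 0.88, because the scanner software had marked its spots on CONTROL arrays 2 and 3 as outliers. POLR3GL, a vertebrate variant of the POLR3G subunit, changed by -0.12 (SE 0.084, adjusted p 0.267).

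POLR1D and the measured members that belong to RNA polymerase I or RNA polymerase II alone gave no call in either direction. POLR1A, the catalytic subunit of RNA polymerase I, was 1 of the 2 members nearest to 0. It read 0.00, 0.01, -0.15 and 0.01 on the CPE arrays, against -0.11, -0.04, -0.05 and 0.09 on the CONTROL arrays, with a change of -0.006 (SE 0.080, adjusted p 0.952). CPE array 3 read below the other CPE arrays and the groups overlapped. POLR1E, a further RNA polymerase I subunit, gave 0.23 (SE 0.11, adjusted p 0.118), and passed without CPE array 3 at 0.30 (adjusted p 0.0331). The second largest subunit of RNA polymerase II, POLR2B, gave 0.18 (SE 0.097, adjusted p 0.158). POLR2C, which helps to nucleate assembly of the enzyme, gave 0.05 (SE 0.073, adjusted p 0.564).

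POLR1D is a small subunit shared by RNA polymerases I and III. On CPE arrays 1, 2 and 4 it read 3.82, 3.86 and 3.80 and on CPE array 3 it read 2.72, against 3.72, 3.72, 3.78 and 3.73 on the CONTROL arrays. The change was -0.19 (SE 0.24, adjusted p 0.541), and without CPE array 3 it was 0.09 (SE 0.057, adjusted p 0.214). The other 3 CPE arrays were above all CONTROL arrays.

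Within Mediator, the middle module had 5 of 9 genes measured, of which 2 rose and 3 did not pass the test (median 0.32). MED1, the subunit through which many nuclear receptors bind Mediator, stood at -0.80, -0.65, -0.93 and -0.81 on the CPE arrays, against -1.38, -1.44, -1.36 and -1.32 on the CONTROL arrays. All CPE arrays were higher, by more than the spread within either group. The change was 0.57 (SE 0.083, 1.49-fold, adjusted p 0.000647), and it stayed between 0.53 and 0.62 when any 1 array was left out. MED7, part of the hinge between Mediator modules, read -0.52, -0.22, -0.31 and -0.36 on the CPE arrays, against -0.73, -0.72, -0.68 and -0.55 on the CONTROL arrays. Its groups came close at CPE array 1 and CONTROL array 4 without overlap. MED7 changed by 0.32 (SE 0.090, 1.25-fold, adjusted p 0.0183), with an adjusted p of 0.0534 without CONTROL array 1 and 0.0575 without CONTROL array 2.

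MED21, the partner of MED7 in that hinge, gave 0.40 (SE 0.24, adjusted p 0.204). It read 0.21, 0.20 and 0.17 on CPE arrays 1, 2 and 4 and -0.91 on CPE array 3, against -0.40, -0.39, -0.44 and -0.68 on the CONTROL arrays. Without CPE array 3 its change was 0.67 (SE 0.086, adjusted p 0.000455). MED19 was the member nearest to 0, at 0.51, 0.50, 0.20 and 0.51 on the CPE arrays against 0.33, 0.36, 0.42 and 0.62 on the CONTROL arrays. The groups overlapped and the change was -0.002 (SE 0.11, adjusted p 0.990). MED4 gave 0.04 (SE 0.093, adjusted p 0.747).

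In the head module, the part of Mediator in closest contact with RNA polymerase II, 3 of 8 genes were measured and none passed the test by limma, while 1 had an unadjusted p under 0.05. The changes were 0.24 for MED22 (SE 0.093, adjusted p 0.0599), 0.18 for the scaffold subunit MED17 (SE 0.085, adjusted p 0.106) and 0.06 for MED20 (SE 0.079, adjusted p 0.549). The groups of MED22 and MED17 did not overlap.

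The tail module and MED14 gave 1 rise and 1 fall from 2 of 7 genes measured. MED27, a tail subunit, read 2.12, 2.13, 2.22 and 2.21 on the CPE arrays, against 1.82, 1.84, 1.85 and 1.99 on the CONTROL arrays. CPE arrays were higher throughout, with means of 2.17 ± 0.05 on CPE and 1.87 ± 0.08 on CONTROL arrays (SD, n = 4 each). The change was 0.30 (SE 0.075, 1.23-fold, adjusted p 0.0110). MED14, the central scaffold that binds the other modules together, read 0.34, 0.41, 0.34 and 0.31 on the CPE arrays, against 0.71, 0.75, 0.73 and 0.90 on the CONTROL arrays. All CPE arrays were lower, and the change was -0.42 (SE 0.075, 1.34-fold lower, adjusted p 0.0020).

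The kinase module had 2 of 4 genes measured. MED12, which activates the kinase of the module, had the largest fall of the 24 members measured. Its levels were -1.0, -0.79, -0.54 and -0.84 on the CPE arrays, against -0.19, -0.04, -0.22 and 0.15 on the CONTROL arrays, without overlap. The change was -0.72 (SE 0.12, 1.64-fold lower, adjusted p 0.00171), and it ran from -0.80 to -0.64 when any 1 array was left out. MED13, which links the kinase module to the rest of Mediator, gave 0.11 (SE 0.22, adjusted p 0.699). Of the 10 calls, those of MED12, MED1 and MED14 were lost in the fewest alternatives, 1 of 22 for MED12, 2 of 22 for MED1 and 2 of 21 for MED14.

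**Figure D3:**
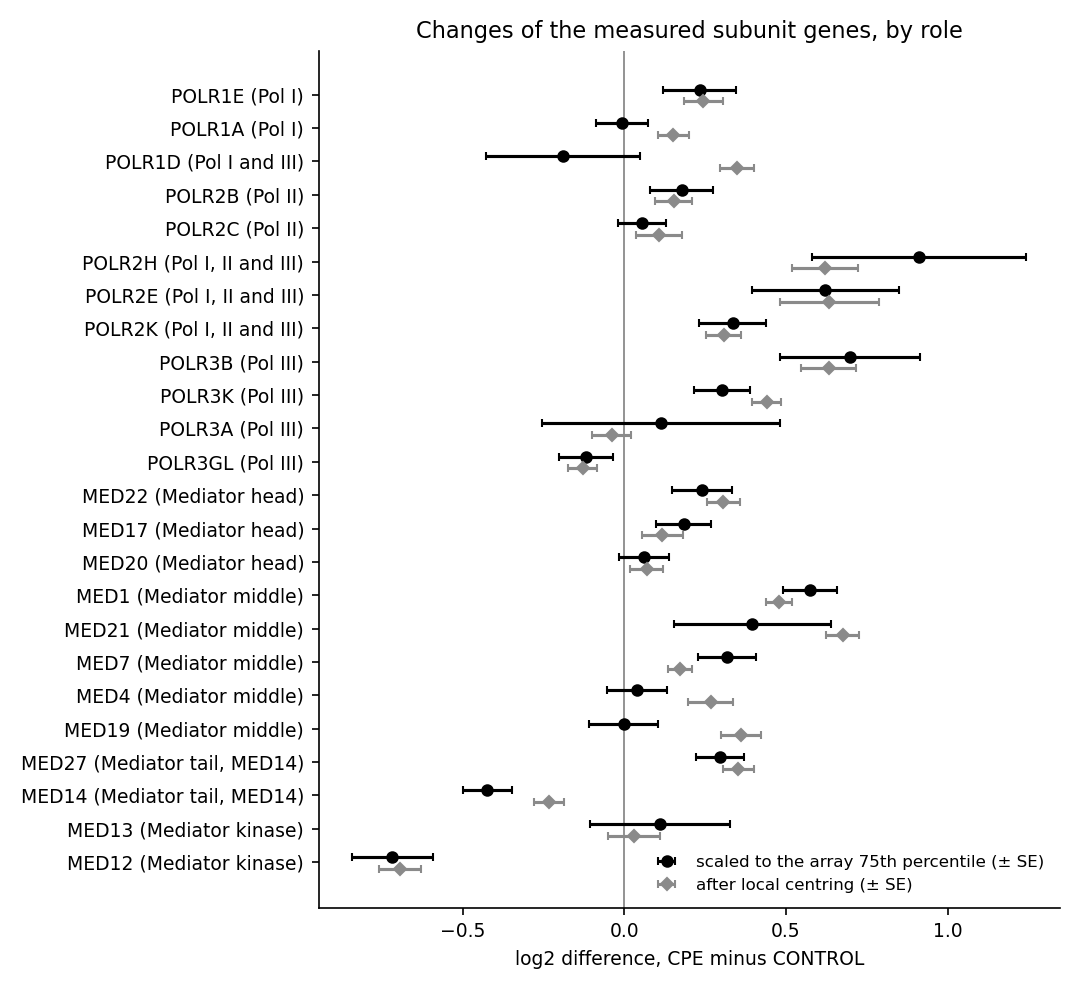
Log2 difference (CPE minus CONTROL) of the 24 subunit genes in the lit area with its SE, grouped by role, scaled to the array's 75th percentile (black circles) and after local centring (grey diamonds). POLR2H (0.91) is at the upper end and MED12 (-0.72) at the lower end, and POLR1D, POLR1A, MED19 and POLR3A change sign after centring; scaled to the 75th percentile of the whole array, all 24 read below 0.

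Signal around the spots also differed between the groups. The median CPE minus CONTROL difference of the 61 nearest lit spots ran from -0.66 at POLR1D to 0.20 at POLR2H over the 24 members. Across these members it had a correlation of 0.48 with the member's own change, and of 0.40 across all 7162 probes, which share arrays and position. Local centring, which subtracts each array's local median deviation, left 16 members higher and 3 lower in CPE (limma, adjusted p 0.05). All probes tested were then called in 72% of cases, 44.4% higher and 27.7% lower, and their median moved by 0.12. All 10 calls kept their direction, with MED14 at -0.23, MED7 at 0.17, POLR2H at 0.62, MED1 at 0.48 and MED12 at -0.69. POLR1D was then called at 0.35, MED19 at 0.36 and POLR1A at 0.15, each on the other side of 0 than before. MED21 was newly called too, at 0.68, the largest rise of the 24 members after centring. Further new calls were MED22, MED4, POLR1E and POLR2B, all higher, and POLR3GL, lower.

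Over the whole array, without regard to lit areas, 36 member probes of 32 genes passed the background filter on every array. Here 1 probe was higher in CPE blood and 8 were lower, against 2.16% of all 9668 probes higher and 36% lower (38.2% called). The median was -0.98 for the members and -1.05 for all probes, so values near -1 equal the shift of all probes. The lower probes read MED12 (-1.84), MED14 (-1.55), MED7 (-1.39), MED24 (-1.31), MED13 (-1.23), POLR2F (-1.81), POLR3F (-1.37) and POLR3GL (-1.24). With scaling to the median of the probes tested, 4 member probes were higher and 2 lower, and 33.4% of all calls were higher in place of 5.7%. Without CPE array 4, 15 member probes were lower, and without CONTROL array 2 or 3 only 1 was. In the authors' deposited table the differences of all 24 genes measured in the lit area were below 0, from -1.84 for MED12 to -0.21 for POLR2H. Over the 118 probes these deposited differences departed from the whole-array ones by a median of 0.0021 and at most 2.2. The largest departure was that of a POLR1D probe, -0.82 as deposited and 1.39 here. Its value on CONTROL array 1 carried an outlier mark and was left out here.

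Grouped by how their surroundings were lit, member probes had a median whole-array difference above 0 only where more CPE than CONTROL arrays were lit. Member probes lit on more CPE than CONTROL arrays numbered 35, with a median whole-array difference of 0.69 (from -2.68 to 5.78), and 22 of them were above 0. The 35 probes lit on all 8 arrays had a median of -1.01 and none was above 0. The 8 probes lit on more CONTROL arrays had a median of -1.004, close to those lit on all 8, and none was above 0. The 2 probes lit on as many arrays of each group had a median of -2.052, with none above 0. The 38 probes lit on no array had a median of -0.88, and 14 were above 0. Of 34 genes with at least 2 probes, 16 had probes on both sides of 0. These counts were not taken over all probes or genes of the array, so none is shown to be particular to the members. Over all probes without a filter the median whole-array difference was -1.05, against -0.89 for the member probes.

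POLR2K has probes on both sides of 0 within 1 gene. Its 3 probes are shown by their first 30 bases, since they read the same symbol with different outcomes.
POLR2K, lit on all 8 arrays: ccttgtgtccccttcatctataaaatggaa
POLR2K, lit on 2 CPE and 0 CONTROL arrays: gggaacacatgtatacctgtggtggattca
POLR2K, lit on no array: ggcaggtgtggtttcccagttgtaattatt
The POLR2K probe lit on 2 CPE arrays had a processed signal of 30300, 2930, 37100 and 14400 on the CPE arrays, against 497, 53.0, 98.8 and 144 on the CONTROL arrays. Its whole-array difference was 5.78 (SE 0.61, adjusted p 1.39e-09), the only member call towards CPE there. Whether this probe also binds other transcripts was not tested. The POLR2K probe lit on all 8 arrays had 1550, 1120, 875 and 1380 on the CPE arrays, against 1120, 1140, 1100 and 958 on the CONTROL arrays. That probe's whole-array difference was -0.79, and the third probe, well above background on 2 CPE arrays and no CONTROL array, gave 0.84. The 3 probes of POLR2K therefore disagree in size and sign over the whole array, and the part of local brightness in the difference was not tested.

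Probes of POLR2B and MED4 also disagreed over the whole array. The POLR2B probe lit on all 8 arrays gave -0.95, the one lit on 1 CPE array gave 2.88, and those lit on no array gave 3.33 and -2.16. The MED4 probe lit on all 8 arrays gave -1.08, and the others, lit on no array, gave 3.49, -1.96 and -2.15.

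Overlapping probes of 1 gene allow the same letters to be read at separate places. Parts of 30 bases are shown, with shared bases in capitals, because the pairs overlap by 35 bases for MED7 and by 54 bases for POLR1D.
MED7, lit on 3 CPE and 4 CONTROL arrays, bases 11 to 40: aatgaatgaaaggccGTGAAGGATGTTTCT
MED7, lit on all 8 arrays, bases 1 to 30: GTGAAGGATGTTTCTTTTCCTTTCCCCTTC
POLR1D, first probe, bases 1 to 30: catcttAGCGGTTGGAGTCCCTGCGAGAAA
POLR1D, second probe, bases 1 to 30: AGCGGTTGGAGTCCCTGCGAGAAACTGTAT
The first MED7 probe had a processed signal of 672, 581, 159 and 621 on the CPE arrays, against 608, 613, 600 and 582 on the CONTROL arrays. CPE array 3 alone was low, and on it the spot was not lit. The second MED7 probe had 524, 597, 322 and 538 on the CPE arrays, against 461, 443, 450 and 399 on the CONTROL arrays. In this unscaled signal both MED7 probes read lowest of the CPE arrays on CPE array 3. Scaled to the array's lit spots, the second MED7 probe was lowest on CPE array 1, at -0.52 against -0.31 on CPE array 3.

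The second POLR1D probe had a processed signal of 7180, 2420, 14800 and 3260 on the CPE arrays, against 1870, 876, 1300 and 16.1 on the CONTROL arrays. The first, which shares 54 of its 60 bases, had 5790 on CPE array 3 and 6840 on CONTROL array 1, and no more than 17.8 on any of the other arrays. It was bright on 1 array of each group, and the bright CONTROL value carried an outlier mark and was left out of fits. Neither probe was lit on all 8 arrays.

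**Figure D4:**
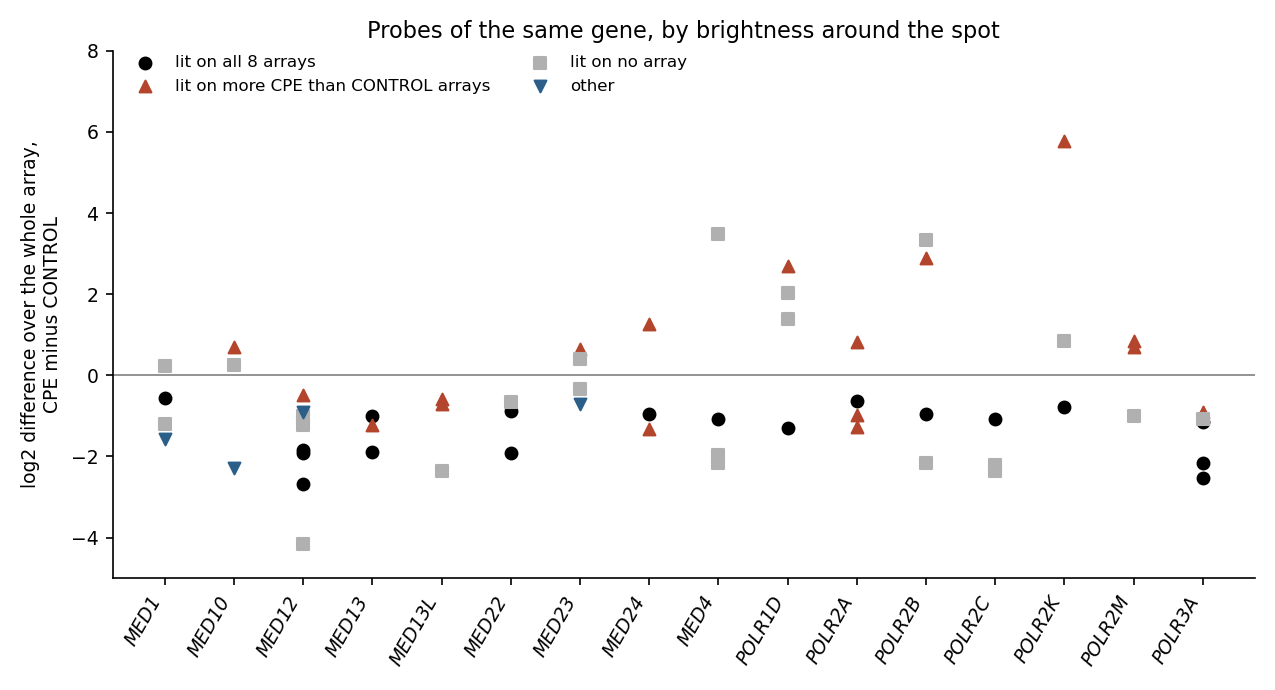
Whole-array log2 difference (CPE minus CONTROL) of each probe of the 16 subunit genes with at least 3 probes, with symbols for how evenly the spot's surroundings were lit. The POLR2K probes span from -0.79 to 5.78, and no probe lit on all 8 arrays (black circles) is above 0.

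Outside the lit area, 8 member probes were well above background on all 4 CPE arrays and on no CONTROL array, and 0 were so the other way round. That is 6.78% of the member probes, against 4.78% of all 43653 probes of the array, and 0.261% of all probes showed the opposite pattern. The 8 probes read POLR2G, MED15, MED18, MED26, MED29, MED4 and, with 2 probes, POLR2B. POLR2G, a subunit of the stalk of RNA polymerase II, had a processed signal of 1400, 2060, 165 and 1030 on the CPE arrays, against 12.5, 21.3, 24.0 and 11.4 on the CONTROL arrays. MED15, a tail subunit, had 662, 1410, 1060 and 559 on the CPE arrays, against 34.6, 24.6, 13.8 and 9.15 on the CONTROL arrays. For the folds below, levels were scaled to each array's 75th percentile over all spots, so they are not ratios of brightness. Relative to the lowest signal well above background on CONTROL arrays, the mean CPE level was 9.51-fold for POLR2G and 9.78-fold for MED15. By the same measure it was 4.12-fold for MED26, 2.87-fold for MED29, 2.25-fold for MED4, and 2.19-fold and 1.85-fold for the POLR2B probes. No fold is given for MED18, whose value was under 1. The same floor served all 8 probes, whatever their surroundings, so the folds are not lower limits for these spots. The probes were chosen as bright on CPE arrays alone, so the direction of the folds largely follows from the choice. The MED15 spot was lit on 4 CPE arrays and no CONTROL array, and the POLR2G spot was lit on none, so neither entered the test in the lit area.

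The other genes of the same pathways, listed by function, numbered 115 on the array. Each of them, and each cell marker further below, was represented by its brightest probe tested in the lit area. Other probes of the same gene can differ from it. Of the 51 measured in the lit area, 17 were higher in CPE blood and 8 lower, with a median of 0.07 beside 0.18 for the members. These calls are 49% of the 51 genes (33.3% higher, 15.7% lower), close to the 48.2% of all probes tested (23% higher, 25.2% lower). The counts of each list below are to be read against these same shares of all probes. Among the general transcription factors of RNA polymerase II, which place the enzyme at the promoter, 14 of 31 were measured, 8 rose and 1 fell (median 0.44). ERCC2, a helicase of factor TFIIH, rose by 1.24 (SE 0.14, adjusted p 0.000213) and GTF2E1 by 0.64 (SE 0.15, adjusted p 0.00811). TAF6, a subunit of TFIID, changed by -0.50 (SE 0.088, adjusted p 0.00177).

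Polymerase genes filed under other symbols gave 2 rises from 4 of 5 genes measured. CD3EAP, an RNA polymerase I subunit, rose by 1.01 (SE 0.10, adjusted p 0.000107), and CRCP, an RNA polymerase III subunit, rose by 0.41 (SE 0.086, adjusted p 0.00474). TWISTNB gave -0.20 (adjusted p 0.0592), and POLRMT, the mitochondrial RNA polymerase, gave 0.44 (SE 0.165, adjusted p 0.0542). Among the factors of RNA polymerase I, 5 of 7 were measured. TTF1, which ends transcription of ribosomal RNA genes, changed by -0.97 (SE 0.080, adjusted p 3.55e-05), and RRN3, which brings the enzyme to its promoter, by -0.67 (SE 0.081, adjusted p 0.00026). TAF1D, a subunit of the promoter factor of the same enzyme, rose by 0.69 (SE 0.10, adjusted p 0.000649).

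Only 3 of 15 RNA polymerase III factors were measured, and MAF1, a repressor of that enzyme, rose by 0.69 (SE 0.21, adjusted p 0.0223). Among elongation and pausing factors, 14 of 29 were measured, 4 rose and 3 fell. The largest rises were TCEB1 at 0.69 and TCEB2 at 0.49, the elongin partner subunits, and the largest falls were ELL2 at -0.58 and SUPT5H at -0.41. The Integrator complex had 4 of 12 genes measured and no call by limma, with 0 at an unadjusted p under 0.05. Assembly factors and phosphatases of RNA polymerase II gave 1 rise, GPN1 at 0.49, and 2 falls, RPRD1A at -0.91 and GPN3 at -0.27, from 7 of 13 genes. CDK8, CDK19 and CCNC, the rest of the kinase module, were not measured in the lit area.

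Markers of blood cells also changed in the lit area, where 23% of all probes tested were higher and 25.2% lower. Of 9 T cell markers measured, 6 were higher in CPE blood and 0 lower, and their summed linear level was 63.2 to 69.9 on the CPE arrays and 47.1 to 51.3 on the CONTROL arrays. For 4 natural killer cell markers, 2 rose and 1 fell, with sums of 33.8 to 38.6 on the CPE arrays and 17.1 to 20.0 on the CONTROL arrays. Of 4 monocyte markers 1 fell (sums of 36.6 to 38.7 on CPE and 42.7 to 47.9 on CONTROL arrays), and of 3 neutrophil markers 1 rose and 2 fell (103 to 116 on CPE and 99.3 to 110 on CONTROL arrays). A sum weighs its brightest markers most and need not follow each one. The neutrophil markers were S100A12 at 0.24, CSF3R at -0.93 and CXCR2 at -0.99, and the natural killer marker that fell was NKG7 at -0.79. No B cell marker of 4 passed the test (32.1 to 39.0 on CPE and 34.0 to 37.1 on CONTROL arrays), nor did HBB of red cells (102 to 164 on CPE and 99.1 to 123 on CONTROL arrays). PPBP of platelets was higher (1.38 to 1.94 on CPE and 0.52 to 0.67 on CONTROL arrays). Every one of these lists had a marker well above background on all 8 arrays, and their part in the changes of the subunit genes was not tested.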

How the data were processed

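Per the file headers and the submitters' processing notes, spot intensity came from Agilent Feature Extraction 10.10.1.1, which subtracted background and detrended the processed signal before the files were deposited. The authors' deposited table holds log2 values averaged per group. Control spots (1417 of 45220) were dropped, as were 12 to 73 outlier spots on each array. Log2 processed signal was scaled to each array's 75th percentile, over lit spots or over all spots. A spot was lit when the 90th percentile of log2 raw median signal over its 61 nearest spots exceeded the array's 90th percentile of these minus 1.5.

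Probes well above background on all 8 arrays went into limma 3.58.1 under R 4.3.3 (lmFit and eBayes, two-sided), with Benjamini-Hochberg adjustment over all probes tested, a threshold of 0.05 and at least 2 values per group. Alternatives were quantile normalisation, no scaling, median scaling, normexp (offset 50), other filters on dim probes, trended and robust variance, the replicate number as a block, a minimum log2 change of 0.5 (treat), other limits of the lit area, local centring, gene means and leaving out each array. Normexp used the median spot signal, since a mean spot signal column was not used here.

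Members, lists and tests were chosen with earlier results of these data known. The rule for naming took every member past the threshold, with values on each array where the groups did not overlap, for POLR2K and for the 2 members nearest 0, and up to 2 rises and 2 falls per further list. Members with an array far from its group, genes of uneven probes and probes bright on CPE arrays alone were added after their values were seen. Of 118 member probes, 110 had their accession in RefSeq's gene table (assembly ARS-UCD2.0), each with the same symbol. Its build differs from the array's, so no positions are given. One POLR2M probe is described in the file as another gene's.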

Additional observations from a re-analysis of the deposited data

Results flagged for a closer look

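Within a group of 4 arrays, 10 of the 47 sets of member values tested held an array far from the other 3 in the lit area. Chance alone marks about 1 in 20 such groups. On CPE array 3, 6 members stood apart. MED19 read 0.20 against 0.50 to 0.51 on the other CPE arrays, MED21 -0.91 against 0.17 to 0.21, and POLR1A -0.15 against 0.00 to 0.01. POLR1D read 2.72 against 3.80 to 3.86, while MED22 read 1.44 against 1.13 to 1.17 and POLR3A 1.94 against 0.64 to 0.77, both higher. On CONTROL array 4, POLR2E read -1.45 against -0.51 to -0.50 on the other CONTROL arrays and POLR2H 1.15 against 2.06 to 2.13. MED21 read -0.68 there against -0.44 to -0.39, and POLR3K 1.53 against 1.35 to 1.36.

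In all 10 cases the 61 nearest lit spots deviated to the same side on that array. For POLR1D the deviation from the other arrays of its group was -1.11 and that of its neighbours -1.13, for MED21 on CPE array 3 -1.10 and -1.16, and for POLR3A 1.23 and 1.20. For POLR2E on CONTROL array 4 it was -0.95 against -0.16 for the neighbours, and for POLR2H -0.96 against -0.55. The part of uneven signal across the array in these values was not tested.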

How the results depend on the processing

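In the lit area, 8 members higher and 2 lower became 5 higher under quantile normalisation or a lit limit of 2, 0 and 1 without scaling, 3 higher with normexp, 0 and 0 with a minimum change of 0.5, 16 higher after local centring, 7 lower with no filter and 1 lower with a lit limit of 1. Leaving out 1 array gave 2 to 8 members higher, lowest without CONTROL array 2, and 2 lower each time. Calls over all probes, 3453 (1650 higher, 1803 lower), became 1187 without scaling (279 higher, 908 lower, median -0.18), 1868 with normexp, 5590 with no filter, 585 with the minimum change and 5160 after local centring (3179 higher, 1981 lower). Roles with a call, 5 of 9, became 1 without scaling, 3 with normexp, 0 with the minimum change, 9 after centring and 3 to 6 when 1 array was left out. Calls among the other pathway genes, 25, became 6, 14 and 3 under no scaling, normexp and the minimum change. All 10 member calls kept their sign in every lit-area alternative in which they were tested. Without scaling only MED12 stayed called. Normexp also ended the calls of POLR2E, POLR2H, POLR2K, POLR3B, POLR3K and MED27 (adjusted p 0.0553 to 0.141), and quantile normalisation those of POLR2H, POLR2K and POLR3K (0.0517 to 0.0591). With normexp MED21 gained a call at 0.52 (adjusted p 0.00406 by limma). Members without a call changed sign, for causes that were not tested: MED19 (0.36), POLR1A (0.15), POLR1D (0.35) and POLR3A (-0.039) after local centring, MED13 (-0.064), MED20 (-0.11), MED4 (-0.13), POLR2C (-0.12) and POLR3A (-0.002) without scaling, MED19 (0.069), POLR1A (0.004), POLR1D (0.037) and POLR3A (-0.084) with normexp, and MED19 (0.033) and POLR1A (0.029) with a lit limit of 1. When 1 array was left out, the range was -0.101 to 0.225 for MED13, -0.037 to 0.076 for MED19, -0.019 to 0.083 for MED4, -0.033 to 0.034 for POLR1A, -0.29 to 0.089 for POLR1D and -0.195 to 0.238 for POLR3A.

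Over the whole array, 1 member probe higher and 8 lower became 3 lower under quantile normalisation or normexp, 3 higher and 1 lower without scaling, 4 and 2 with median scaling, 8 and 4 with the filter on 1 group, 9 higher with no filter and 0 lower with the minimum change. The filter on 1 group lets in probes above background on CPE arrays alone, so the direction of those rises largely follows from it. Over all probes, 209 higher and 3481 lower became 2587 and 3231 with that filter, and 2660 and 3658 with no filter. Leaving out 1 array gave 1 to 2 higher and 1 to 15 lower. Calls over all probes, 3690, became 2249 with quantile normalisation, 1075 without scaling (454 higher, 621 lower), 2066 with normexp, 5818 and 6318 with the looser filters and 859 with the minimum change, and 1555 to 5403 when 1 array was left out. Directions turned with the scaling. Probes of POLR2H (0.68), POLR3B (0.47), POLR2E (0.39), MED1 (0.35), MED21 (0.17), POLR2K (0.11), MED7 (0.088), POLR3K (0.073), MED27 (0.067), MED22 (0.011) and POLR1E (0.005) were above 0 with median scaling, as was POLR2H (0.25) with quantile normalisation. Without scaling POLR2H (0.74), POLR3B (0.52), POLR2E (0.45), MED1 (0.40), MED21 (0.22), POLR2K (0.16), MED7 (0.14), POLR3K (0.13), MED27 (0.12), MED22 (0.066), POLR1E (0.060), MED17 (0.009) and POLR2B (0.003) were. MED6 ran from -0.21 to 0.526 when 1 array was left out.

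The deviations of same-numbered arrays of both groups had correlations of mixed sign (-0.12, -0.17, 0.29 and 0.42 over 7085 probes). Those of differently numbered arrays ran from -0.44 to 0.30. These values do not settle whether the numbers pair the arrays, and the main fits did not pair them. With the replicate block the lit area gave 8 members higher and 2 lower, POLR3A at -0.16, and the whole array 1 higher and 15 lower.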
